A study of Arabidopsis thaliana with 12 samples.

Results

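A set of 25 Arabidopsis thaliana genes was described whose transcripts were measured at a moderate level and were lower in DCMU-treated plants in every pair of sample numbers. Their probes were annotated to exactly 1 gene, had a mean raw intensity over all 12 arrays from 0.27 to under 1.5 in the authors' scaled units, and had a log2 difference (DCMU minus untreated) of at most -0.1 in each of 3 pairs. Of the 529 named probes in this range of levels, 34 met these limits, and 9 of the 34 were set aside together with 5 further loci that did not meet them, which leaves the 25. The series holds 692 probes with 1 gene among 3439. Both groups were wild type of ecotype C24, grown under light specific for photosystem II, and 6 of the 12 samples were from plants also treated with DCMU. The labels give no tissue, plant age, DCMU dose or duration of treatment. Numbers 1-2, 3-4 and 5-6 deviated together within each group and were averaged on the log2 scale, so that each group had 3 replicates.

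DCMU (diuron) is a herbicide that occupies the plastoquinone binding site of photosystem II and stops electrons from reaching the plastoquinone pool. The redox state of that pool is a known input to the expression of nuclear genes for plastid proteins, and light that drives mainly photosystem II tends to reduce it. The 25 genes do not form a known pathway. Those with a known role, or of a family with a known role, belong to tetrapyrrole, tocopherol and arginine synthesis, to the handling of DNA, RNA and protein, and to membranes.

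These genes were chosen by their DCMU difference in all 3 pairs and by their mean intensity, so the differences are given as a description and without a test. The mean difference over the 3 pairs ran from -1.15 (AT2G36480) to -0.15 (AT3G50180), with a median of -0.32, while the median over all 3278 features measured was 0.10. The difference was at least 2-fold for 1 gene, at least 1.5-fold for 3, between 1.2-fold and 1.5-fold for 15, and under 1.2-fold for 7. Most of the set was therefore a little lower, and AT2G36480 had the largest difference. In bulk RNA, fewer cells of a type and less RNA per cell cannot be told apart.

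**Figure D1:**
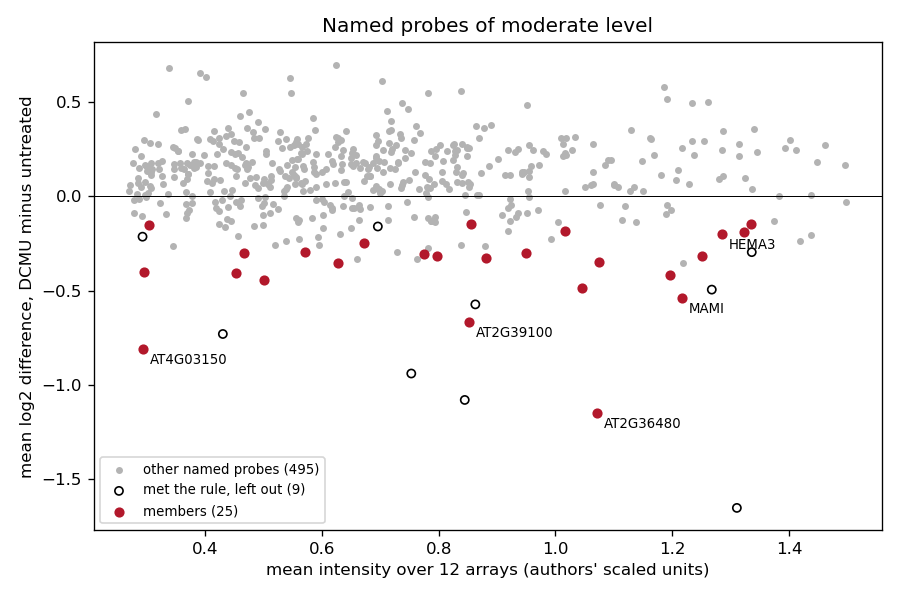
Mean log2 difference (DCMU minus untreated, mean of 3 pairs) against mean intensity over 12 arrays, for the 529 named probes of moderate level. Each point is 1 probe, red points are the 25 members, open circles the 9 genes set aside; AT2G36480 is lowest among the members, at -1.15, and members occur at levels from 0.294 to 1.34.

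For the 3 genes with the largest differences, no role beyond a family is given here. AT2G36480 encodes a protein of the ENTH/VHS domain family. Its level without DCMU was 1.63, 0.963 and 1.86 in numbers 1-2, 3-4 and 5-6, and with DCMU it was 0.747, 0.505 and 0.710. All 3 treated replicates lay below all untreated ones, and numbers 3-4 were the lowest of both groups. This is a difference of -1.15 ± 0.230 on the log2 scale (SD, n = 3 pairs), or 2.22-fold.

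AT4G03150, for which no role is given here, was at 0.312, 0.362 and 0.453 without and at 0.190, 0.234 and 0.212 with DCMU. The groups did not overlap, but all 3 treated levels lay below 0.27, the lower limit that the mean over the arrays had to reach. The difference was -0.81 ± 0.246 (SD, n = 3 pairs), and it was -0.46 with a floor raised to the 10th percentile of the positive values (0.27). AT2G39100, a RING/U-box protein of the kind that often acts in ubiquitin ligation, was at 0.968, 1.22 and 0.958 without and at 0.663, 0.705 and 0.602 with DCMU. Here numbers 3-4 were the highest of both groups, the opposite of AT2G36480, and the groups again did not overlap. Its difference was -0.67 ± 0.120 (SD, n = 3 pairs), or 1.59-fold.

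Genes for membrane proteins made up a second group. MAMI (AT5G54110), named as a membrane-associated mannitol-induced protein, was at 1.56, 1.30 and 1.43 without and at 1.25, 0.722 and 1.04 with DCMU. The treated replicates were all lower, and numbers 3-4 differed most, by -0.85 against -0.32 in numbers 1-2. AT5G19750, of the Mpv17/PMP22 family of organelle membrane proteins, was at 1.39, 1.22 and 1.06 without and at 0.870, 0.773 and 0.963 with DCMU. Its pairs differed unevenly: the difference was -0.67 and -0.66 in numbers 1-2 and 3-4 and only -0.13 in numbers 5-6. AT1G22850, of the SNARE-associated Golgi protein (DedA) family, was at 1.16, 0.922 and 0.859 without and at 0.903, 0.667 and 0.771 with DCMU. The groups overlapped, since the treated numbers 1-2 lay above the untreated numbers 5-6, although each pair was lower with DCMU. A second probe, annotated to AT1G22850 and 2 relatives (AT1G03260 and AT5G19070), had a mean difference of -0.30, close to the -0.33 of the gene's own probe. AT1G02260, a putative divalent ion symporter, had a smaller difference of -0.19 ± 0.0703 (SD, n = 3 pairs).

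Members with a role in metabolism, known or given by family, had mean differences from -0.42 to -0.15. AT5G10920 encodes argininosuccinate lyase, the last enzyme of arginine synthesis. It was at 1.58, 1.05 and 1.46 without and at 1.23, 0.816 and 1.02 with DCMU. Numbers 3-4 were low in both groups, so the groups overlapped, while the difference within pairs was -0.42 ± 0.0933 (SD, n = 3 pairs). AT1G78620 encodes the phytyl phosphate kinase that feeds phytol from chlorophyll into tocopherol synthesis. It was at 0.812, 0.613 and 0.762 without and at 0.682, 0.491 and 0.675 with DCMU, a difference of -0.25 ± 0.0721 (SD, n = 3 pairs). HEMA3 (AT2G31250) belongs to the family of glutamyl-tRNA reductases, which carry out the committed step of tetrapyrrole and hence chlorophyll synthesis. It was at 1.65, 1.15 and 1.33 without and at 1.38, 1.03 and 1.16 with DCMU, a difference of -0.20 ± 0.0505 (SD, n = 3 pairs). For AT1G78620 and HEMA3 alike the spread between pairs of 1 group was wider than the difference between groups, and the groups overlapped. AT4G34310, an alpha/beta-hydrolase family protein, was the opposite case: it was at 1.25, 1.18 and 1.17 without and at 0.931, 0.965 and 0.939 with DCMU, with little spread between the averaged replicates of either group. Its single arrays were wider apart, from 1.15 to 1.32 without and from 0.850 to 1.02 with DCMU. AT4G24750, a rhodanese-like protein, had one of the smallest differences, -0.15 ± 0.0676 (SD, n = 3 pairs).

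**Figure D2:**
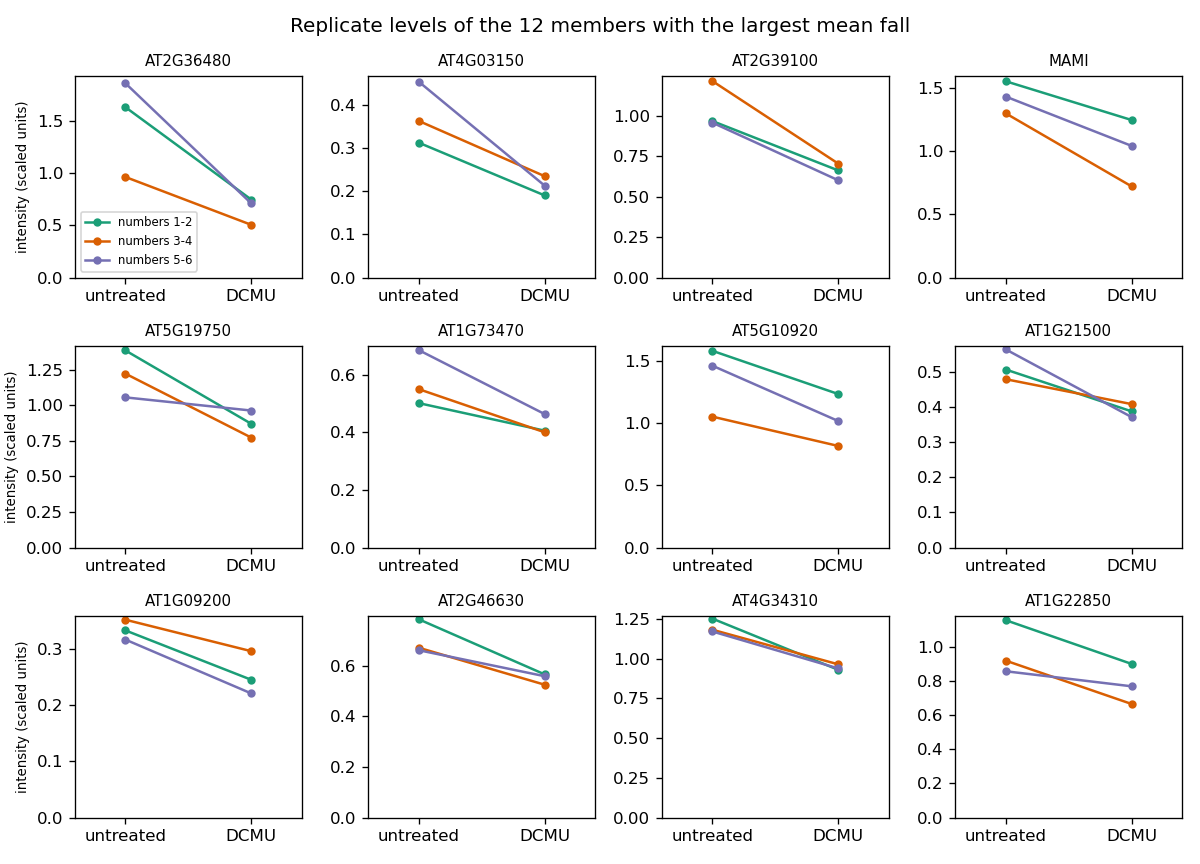
Level (authors' scaled intensity, linear axis from 0) of the 12 members with the most negative mean difference, in the 3 untreated and 3 DCMU replicates; a line joins the replicates of the same numbers. All lines go down, as the selection requires; AT4G34310 has tight groups, while AT5G10920 and AT1G22850 have groups that overlap.

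Genes that handle DNA, RNA and protein synthesis formed another group. AT1G09200 encodes histone H3.1, the replication-dependent form of histone H3, and is 1 of several nearly identical gene copies that its probe may not separate. It was at 0.333, 0.352 and 0.317 without and at 0.245, 0.296 and 0.221 with DCMU. The groups did not overlap, and the difference was -0.40 ± 0.139 (SD, n = 3 pairs), or -0.26 with the floor at the 10th percentile. AT4G31210, a type IA DNA topoisomerase, had the most even difference of the set, -0.28, -0.28 and -0.35 in the 3 pairs. AT2G46050, a pentatricopeptide repeat protein of the family that binds organelle RNA, had among the least even ones, -0.22, -0.55 and -0.12. AT4G33760, of the class II aminoacyl-tRNA synthetases, had a difference of -0.15 ± 0.0758 (SD, n = 3 pairs), or -0.12 with the floor at the 10th percentile. Its levels in numbers 3-4, 0.264 without and 0.246 with DCMU, lay below that floor of 0.27. It was the single member not lower with DCMU in all 6 single sample numbers, being lower in 5. The other 24 were lower in 6 of 6, as were 393 of all 3278 features.

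The remaining 9 members have no role given here beyond a family. AT1G73470 was at 0.501, 0.550 and 0.685 without and at 0.405, 0.400 and 0.463 with DCMU, a difference of -0.44 ± 0.130 (SD, n = 3 pairs). AT1G21500 was at 0.506, 0.479 and 0.563 without and at 0.387, 0.408 and 0.371 with DCMU, and AT2G46630 at 0.783, 0.671 and 0.661 without and at 0.566, 0.525 and 0.559 with it. In all 3 genes the treated replicates lay below every untreated one. The mean difference was -0.32 for both AT4G08940 and AT3G56010, and -0.30 for both AT2G29180 and AT5G19900. AT4G17440 was at -0.18 on its own probe, but a probe annotated to AT4G17440 and AT3G60410 had a mean difference of 0.25, with 0.39, 0.01 and 0.36 in the 3 pairs. The 2 probes that carry its name thus differed in sign, and which transcript each reports was not checked by sequence. AT3G50180, of the DUF247 family, was at -0.15. It lies on its chromosome with 4 genes between it and AT3G50130, of the same family, which was set aside and was at -0.94.

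The limit of -0.1 separated close neighbours. The members nearest to it had a least negative pair of -0.11 (AT4G24750), -0.10 (AT4G33760) and -0.10 (AT5G19900), and the named probes just outside had -0.0948 (AT1G24240), -0.0893 (AT5G49800) and -0.0775 (OSB1). AT1G24240 had a mean difference of -0.33, larger in size than that of 14 members, and was outside because of numbers 5-6 alone. The 9 genes set aside had mean differences from -1.65 (AT4G18180) to -0.16 (AT4G01310).

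**Figure D3:**
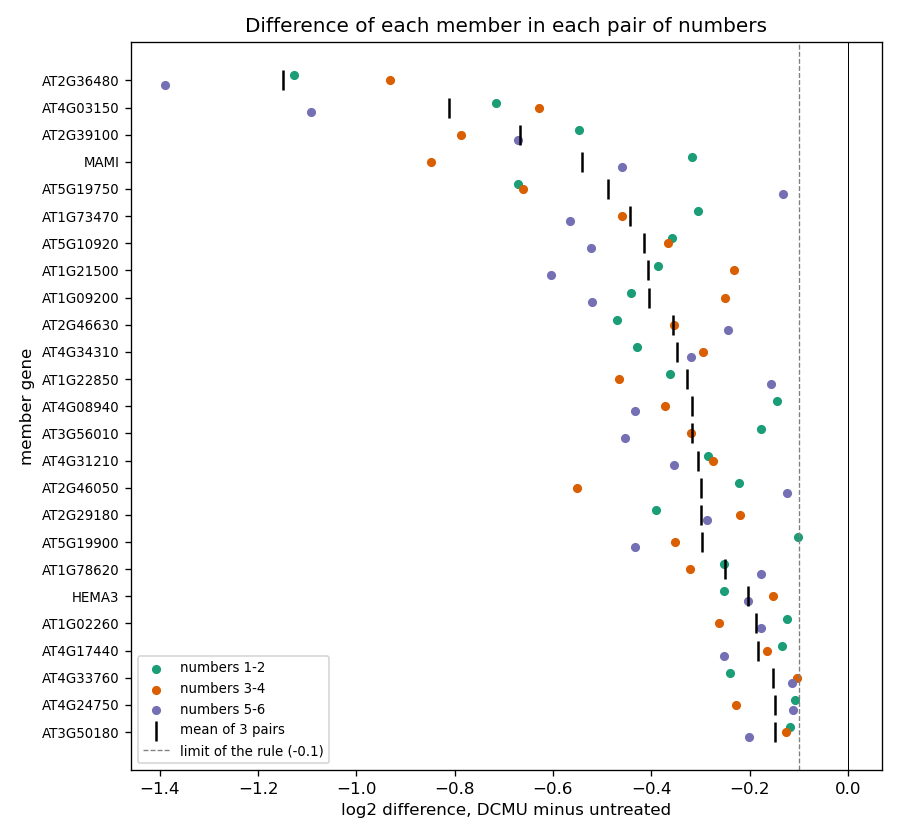
Log2 difference (DCMU minus untreated) of each of the 25 members in numbers 1-2, 3-4 and 5-6, with the mean of the 3 pairs as a black bar and the limit of -0.1 as a dashed line. MAMI, AT5G19750 and AT2G46050 have pairs far apart, AT4G31210 and HEMA3 pairs close together.

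Named probes of this level met the 3 limits in 6.43% of cases, against 7.56% of probes annotated to several genes and 11.0% of probes with no gene name in the same range. In the opposite direction, 23.6% of the named probes in the range were higher by at least 0.1 in all pairs. This balance depends on the scaling, since the median feature was itself 0.10 higher with DCMU: as scaled, 34 named probes in the range were lower and 125 higher in all pairs, and with arrays centred on their medians 58 were lower and 72 higher. Among all 3278 features, 3.17% were called lower by limma (moderated test, p-values adjusted by Benjamini-Hochberg over all features, threshold 0.05), and 3 of the 25 members were among them (AT2G36480, AT4G03150 and AT2G39100). This fit called 104 features lower and 63 higher, and 152 lower and 49 higher with arrays centred on their medians. With the pair of numbers as a block, 6.56% of features and 15 members were called lower. Groups did not overlap, with DCMU lower, in 8.69% of features and in 15 members. As the same difference selected the members, their counts support nothing. The fits that leave out 1 replicate had no block, so they ignore the pairing. Without the DCMU replicate of numbers 1-2, limma called 0 members lower, and 58 of all 3278 features. Without the DCMU replicate of numbers 5-6 it called 1 member lower, AT4G03150, and 70 of all features. AT2G39100 lost its call in both of these fits, and AT2G36480 also lost it without the untreated replicate of numbers 1-2 or 5-6 or the DCMU replicate of numbers 3-4.

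The members' levels, averaged over both groups, also varied between the pairs of numbers. This average is not the difference that chose the genes, but the pairs themselves were formed because their arrays deviated together in these data, so the variation between pairs is given as a description, with no test. The labels do not say what the pairs are.

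The largest shifts were low levels in numbers 3-4. Averaged over both groups, AT2G36480 was at 1.10, 0.697 and 1.15 in numbers 1-2, 3-4 and 5-6, and MAMI at 1.39, 0.969 and 1.22. HEMA3 was at 1.51, 1.09 and 1.24 and the tocopherol synthesis gene AT1G78620 at 0.744, 0.549 and 0.717. The argininosuccinate lyase gene AT5G10920, the topoisomerase gene AT4G31210 and the pentatricopeptide repeat gene AT2G46050 were also lowest there. In all, 10 of the 25 members were lowest in numbers 3-4 in both groups, as were 92 of the other 504 named probes. AT2G39100, AT1G09200, AT4G08940 and AT5G19900 went the other way and were highest in numbers 3-4. The pairs spanned 0.47 on the log2 scale for HEMA3 and 0.44 for AT1G78620, more than their DCMU differences of -0.20 and -0.25. For AT2G36480 they spanned 0.72, less than its DCMU difference of -1.15.

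**Figure D4:**
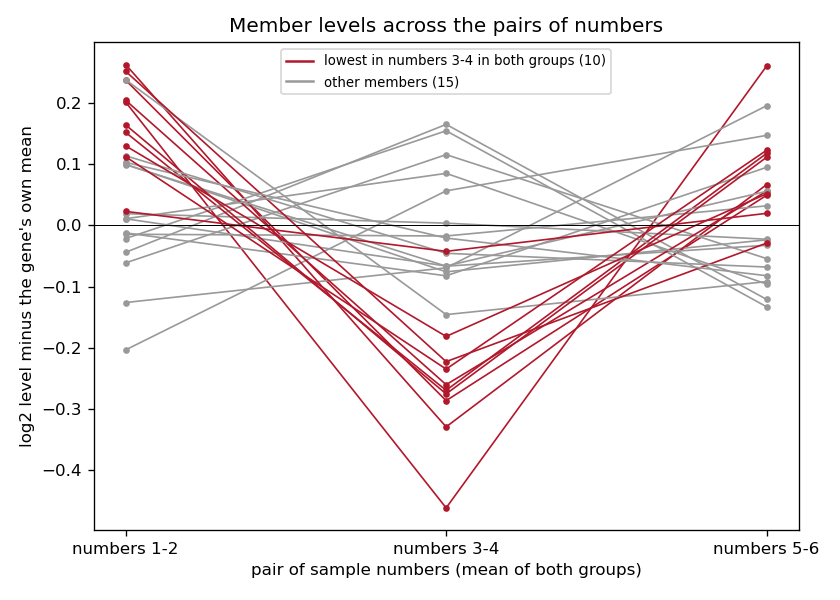
Log2 level of each of the 25 members in numbers 1-2, 3-4 and 5-6, averaged over both groups, relative to the gene's own mean. Each line is 1 gene, red for the 10 genes that were lowest in numbers 3-4 in both groups; the deepest line is AT2G36480, and 4 lines are highest in numbers 3-4.

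The median spot of the arrays in numbers 1-2, 3-4 and 5-6 averaged 0.645, 0.635 and 0.601 without DCMU and 0.686, 0.635 and 0.665 with DCMU, and its part in these shifts was not tested. The 5 photosynthesis genes fixed as markers of green tissue were all measured, with a summed level of 26.2 to 32.3 without and 15.2 to 17.5 with DCMU. The lower sum came mainly from the light-harvesting gene LHCB1.5 (mean level 22.3 without and 10.02 with DCMU) and also from PSB27 (3.03 and 1.62). The other 3 had higher means with DCMU: PSAN 2.85 and 3.06, PRK 0.62 and 0.87, and SBPASE 0.62 and 0.82. Their part in the members' differences was not tested. None of the 3 root plastid and 3 seed storage genes fixed as markers of other tissues had a probe of its own, so the tissue could not be checked further.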

How the data were processed

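Arrays of total RNA from 12 samples were used, 6 per group. The authors deposited 1 table of linear intensities with a value for each probe and sample; the array totals of 3643 to 3768 show that the authors had scaled the intensities. How arrays were labelled, scanned, background-corrected and scaled is not given in the sources used here. Precision is limited by the number of arrays. Probe names came from the platform annotation, updated through the RefSeq TAIR10.1 gene table (690 of 692 found), and were not checked by sequence. Gene roles are background knowledge, because that table holds no descriptions.

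Values under 0.067 were set to that floor before log2. The 160 probes at or under it on every array were left out, and averaging spots of the same gene gave 3278 features. No array value of a member was at the floor. Across features, each array's deviation from its group's mean correlated at 0.36 to 0.67 within numbers 1-2, 3-4 and 5-6 and at -0.58 to -0.11 between other numbers. The averaged replicates of the same numbers correlated across groups at 0.38, 0.44 and 0.41, and those of unlike numbers at -0.38 to 0.01. Deviations from a group's own mean cancel out, so the negative values between unlike numbers are partly built in. Because of the positive values alone, same-numbered replicates were treated as paired, which the labels do not state. As replicates are not said to be separate plantings, p-values measure the spread between these samples only.

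The DCMU comparison was fitted with limma 3.58.1 in R 4.3.3 on 3 against 3 replicates without a block, the fit fixed for these data, which ignores the pairing; the fit with the block is given beside it. A limma F test between the pairs (12 arrays, a mean for each group and pair) supports no statement here, because the pairs came from these data. The members and marker lists were chosen with earlier results of these data known. Every member is named, and the 12 with the most negative mean difference get replicate values; values of AT1G78620 and HEMA3 were added after they were seen. Alternatives were median centring, quantile normalization, another floor, no filter, the replicate block, 12 separate samples and leaving out replicates.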

Additional observations from a re-analysis of the deposited data

Results flagged for a closer look

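In the untreated group, the array of number 2 stood apart for AT4G34310, at 1.32, with a gap to the next highest of the 6 arrays of 0.686 of their whole range, above Dixon's critical value. This was 1 of 50 groups of 6 arrays examined, where chance flags about 5 percent, and the paired numbers are not independent arrays.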

How the results depend on the processing

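All 25 members had a negative mean difference under median centring, quantile normalization, the floor at the 10th percentile and without each pair of numbers. Without a pair of numbers the rule itself fixes this sign. In the other settings the members were still those chosen by this difference, so their shared sign supports nothing. Their median of -0.32 became -0.40 after median centring and -0.39 after quantile normalization, and -0.34 to -0.31 without 1 pair. The 25 became 48 after median centring (all 25 among them), 42 after quantile normalization (22 among them) and 24 with the floor at the 10th percentile. They became 12 with a limit of -0.2, 52 with any negative difference, and 36 to 46 without 1 pair, where only 2 limits apply. The count of features called for DCMU was 167 (104 lower), 566 with the replicate block (215 lower), 479 with the replicate block after median centring (321 lower), 446 with it after quantile normalization (271 lower), 1089 with 12 separate samples (322 lower), 102 without the filter on dim probes, which adds features at the floor on all arrays (57 lower), and 77 to 283 without 1 replicate. The members called lower were 3, and 15, 19, 18, 17 and 1 (AT4G34310) in the same settings. With the floor at the 10th percentile 3 were called, where AT4G34310 passed in place of AT4G03150. There were 7 after median centring, 8 after quantile normalization, and 0 to 4 without 1 replicate. Over all features, 98 of 3103 were called lower with that floor, 152 of 3280 after median centring and 136 of 3281 after quantile normalization. Without 1 replicate, 58 to 123 of 3278 features were called lower. The F test between pairs, which restates how the pairs were formed, called 1870 features and 19 members, and 817 to 1306 features and 8 to 15 members without 1 pair. Both rescaled fits with the block, and the pair test without 1 pair, were chosen after seeing the data. Beyond what is stated here the cause was not tested. No background values were used here, so a level near the floor cannot be told from none.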
